A study of Mus musculus with 4 samples.

Results

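The collagen genes were followed across the cell types of regenerating mouse skeletal muscle. Members were all genes whose symbol reads Col, a number, the letter a and a number and nothing more, which gave 44 of the 25827 genes counted. They were divided into 11 fibrillar collagens, 8 basement membrane collagens and 25 minor collagens. The fibrillar group held Col1a1, Col1a2, Col2a1, Col3a1, the type V genes Col5a1 to Col5a3, the type XI genes Col11a1 and Col11a2, Col24a1 and Col27a1. The basement membrane group held the type IV genes Col4a1 to Col4a6 with Col15a1 and Col18a1. All other symbols formed the minor group. Each of the 44 genes had at least 1 molecule counted in the cells that were kept, and 29 reached a mean of 10 CPM (counts scaled to 1000000 of the cell type) in at least 1 cell type and are described with their values.

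Collagens are secreted proteins whose chains wind around each other into a helix. The fibrillar types I, III and V assemble into the tensile fibrils of muscle connective tissue and tendon and are chiefly products of fibroblasts and tenocytes. Type IV collagen forms the sheet-like network of basement membranes, which in muscle ensheathes the myofibers, the satellite cells lying on them, capillaries and the Schwann cells of nerves. Minor collagens include the beaded filaments of type VI collagen, the FACIT collagens that bind to fibril surfaces, short-chain network collagens and collagens that span the plasma membrane.

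The data were 4 droplet single-cell RNA libraries of cells sorted for α7-integrin, a surface marker of myogenic progenitors (MPs), and against CD45, CD31 and Sca1, markers of blood, endothelial and many stromal cells. Each library pooled the tibialis anterior muscles of 3 male mice aged 12 weeks, 6 days after injury with cardiotoxin. There were 2 Pax7Cre libraries, the control, and 2 miR-501KO libraries (Pax7CremiR-501fl/Y), in which Cre deletes the floxed miR-501 gene on the X chromosome. Both groups carried the Pax7Cre allele, a Cre that is not inducible and is driven by the promoter of the satellite cell gene Pax7, so the deletion is set in cells of the Pax7 lineage. The level of miR-501 itself was not analysed here. The 2 libraries of a group came from separate pools of mice processed in separate runs.

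Levels are given as CPM, the UMIs of a gene (unique molecular identifiers, 1 per captured RNA molecule) per 1000000 UMIs of the same cell type in the same library. Capture at the 3′ end counts a molecule once whatever its length, so levels of different genes were set side by side without division by length. Where 4 values stand in a row, they are those of Pax7Cre replicates 1 and 2 followed by miR-501KO replicates 1 and 2.

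After removal of barcodes with under 5000 UMIs or under 1000 genes, 10450 of 16519 barcodes were kept, between 1829 and 3439 per library, with median depths of 25254 to 34579 UMIs per cell. Of 19 clusters, found without the collagen genes, 13 were named from marker lists that hold no collagen. There were 2259 quiescent-like, 2138 activated-like and 2224 cycling-like myogenic cells, with 1349 that were committed-like. The sort also held 106 fibroblast- or tenocyte-like, 270 mural-like, 195 Schwann-like and 347 macrophage-like cells, and 1562 cells stayed unnamed. The non-myogenic names rested on 18 of 19 fibroblast and tenocyte markers, 11 of 11 mural markers, 12 of 12 Schwann markers and 14 of 14 macrophage markers raised in their clusters, whereas the activated-like name rested on 3 of 10. Macrophage-like cells carry CD45, which the sort selected against. In miR-501KO replicate 1, 970 cells fell into unnamed clusters, and the 58 fibroblast- or tenocyte-like cells of miR-501KO replicate 2 had a median of 9107 UMIs. Kept barcodes shared between libraries numbered 20.

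Collagen RNA was most abundant in fibroblast- or tenocyte-like cells, which held 50280 ± 10056 collagen CPM (SD, n = 4 libraries). Mural-like cells followed with 15069 ± 286, Schwann-like cells with 7968 ± 1634, activated-like cells with 6788 and quiescent-like cells with 6282. Cycling-like cells had 4131, and committed-like cells, with 1093, were close to the 1086 ± 277 of macrophage-like cells, a blood lineage that serves here as the background of free RNA. When the 5% of cells with the highest Scrublet scores, a measure of doublets, were left out, the macrophage-like levels were lower, at 352 fibrillar, 69.6 basement membrane and 79.4 minor CPM in place of 767, 178 and 141, and fibrillar collagens in committed-like cells were at 716 in place of 764. The 3 groups of collagens had different leading cell types. Of the 29 genes described, 17 were highest in fibroblast- or tenocyte-like cells (6 fibrillar, 1 basement membrane, 10 minor), 6 in Schwann-like cells, 4 in mural-like cells and 2 in quiescent-like cells. For 23 of the 29 the lowest library of the leading cell type lay above the highest library of the next one. The exceptions were Col4a4, Col4a5, Col6a3, Col6a5, Col16a1 and Col26a1. The leading cell type was picked from the same values, and the share over all genes was not counted. The count therefore describes these genes and does not set collagens apart from other genes.

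**Figure D1:**
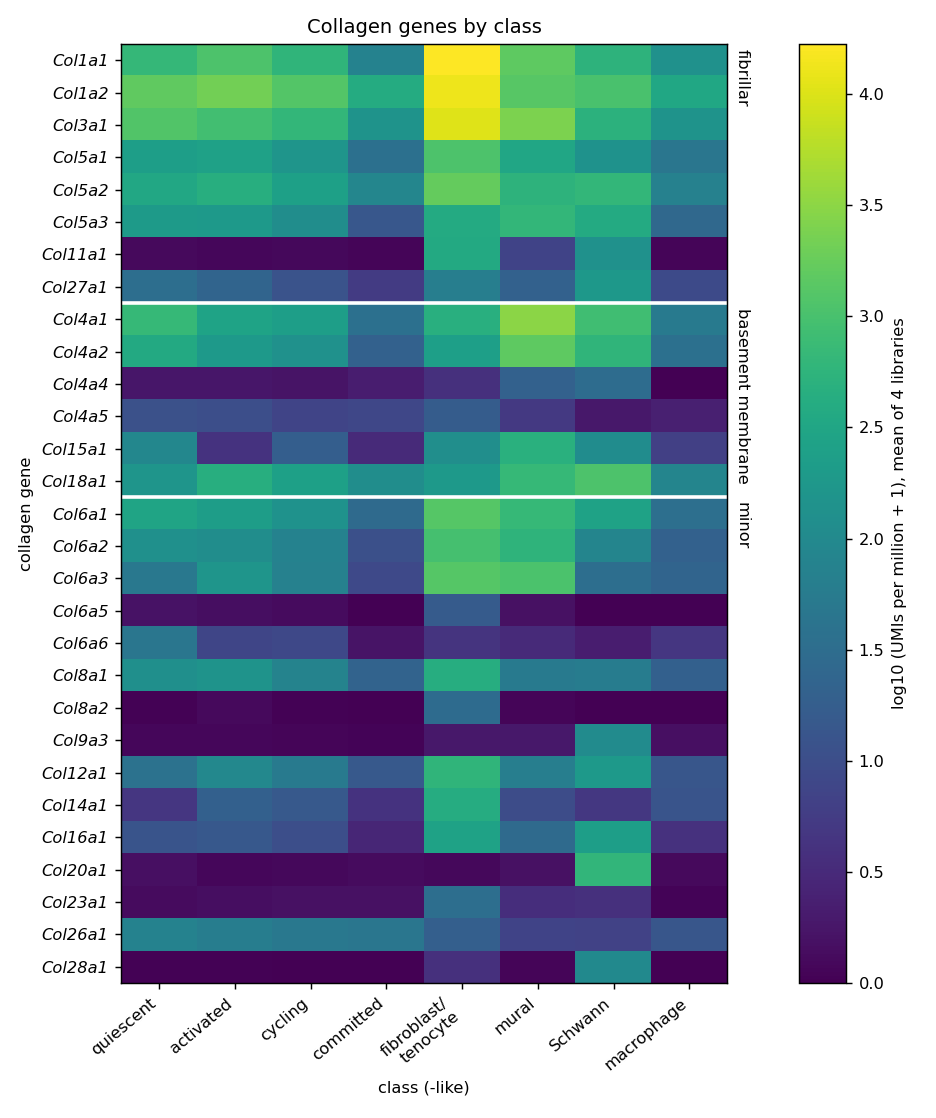
Heat map of the 29 collagen genes that reached 10 CPM in a cell type; rows are genes in their 3 groups, columns the 8 named cell types, and colour is log10 of CPM plus 1, as the mean of the 4 libraries. Of the fibrillar genes 6 are brightest in the fibroblast- or tenocyte-like column, with Col5a3 brightest in mural-like and Col27a1 in Schwann-like cells, Col4a1, Col4a2 and Col15a1 in the mural-like column, and Col20a1, Col28a1 and Col9a3 in the Schwann-like column alone.

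Col1a2 (ENSMUSG00000029661), one of the 2 genes whose chains form type I collagen, had the most UMIs of any member, 486663 in all kept cells, and Col1a1 (ENSMUSG00000001506) had 277693. In fibroblast- or tenocyte-like cells Col1a1 stood at 14899, 16766, 22071 and 13414 CPM and Col1a2 at 12845, 14824, 14464 and 9450. Col3a1 (ENSMUSG00000026043), which encodes the chain of type III collagen, stood there at 8442, 12504, 13275 and 8138. For all 3 genes the lowest of these libraries was above the highest library of any other cell type. Against quiescent-like cells the log2 fold change was 4.66 ± 0.22 for Col1a1 (SE; adjusted p = 4.6e-18), 3.07 ± 0.15 for Col1a2 (adjusted p = 4.22e-17) and 3.17 ± 0.19 for Col3a1 by edgeR's quasi-likelihood test with Benjamini-Hochberg adjustment. The 250 bases before the start of Col1a2 (RefSeq, GRCm38.p6, chr6:4505368-4505617, plus strand) are printed since this gene had the highest fibrillar level in committed-like cells, and those before Col3a1 (chr1:45311288-45311537, plus strand) since it was lower in activated- than in quiescent-like cells, where the type I genes were higher. Capitals mark the motif nearest the start among 2 that were searched on both strands, CCAAT, read as ATTGG on the other strand, and ACAAAG, read there as CTTTGT.
Col1a2: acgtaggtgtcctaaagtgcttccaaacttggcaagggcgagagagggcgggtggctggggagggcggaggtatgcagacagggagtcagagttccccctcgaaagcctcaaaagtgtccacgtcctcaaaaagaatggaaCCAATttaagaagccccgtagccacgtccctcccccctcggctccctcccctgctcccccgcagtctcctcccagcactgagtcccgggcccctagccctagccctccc
Col3a1: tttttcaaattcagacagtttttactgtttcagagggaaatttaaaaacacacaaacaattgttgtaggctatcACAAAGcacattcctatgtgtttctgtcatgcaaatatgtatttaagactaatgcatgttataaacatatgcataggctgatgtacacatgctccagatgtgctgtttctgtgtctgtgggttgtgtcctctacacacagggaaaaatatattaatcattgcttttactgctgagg
CCAAT lay 109 bases before the start of Col1a2 and ACAAAG 176 bases before that of Col3a1. Of the 44 members 35 have a start in the table, and the CCAAT motif was found before 13 and the ACAAAG motif before 4 of them. Among all 32851 regions of this length, 33.9% held the first motif and 16.5% the second. The motifs do not overlap, and a match of these letters is a description of the sequence only.

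The type V genes, whose chains are built into type I fibrils, followed the same order in fibroblast- or tenocyte-like cells at lower levels. Col5a1 stood at 963, 1160, 1348 and 896 CPM and Col5a2 at 1319, 1597, 2435 and 1350. The spread of Col5a2 among the 4 libraries was wide, with miR-501KO replicate 1 the highest. Col5a3, which encodes the third type V chain, broke the order, since it was highest in mural-like cells at 659, 663, 541 and 596 and reached 455, 267, 482 and 304 in fibroblast- or tenocyte-like cells. Its levels in these 2 cell types did not overlap. Col11a1, a fibrillar collagen best known from cartilage, was found in fibroblast- or tenocyte-like cells at 406, 387, 446 and 246 and in Schwann-like cells at 117, 138, 158 and 139. It was at most 0.402 CPM in every library of the myogenic classes. Col27a1, a fibrillar collagen with short interruptions in its helix, was instead highest in Schwann-like cells at 148, 168, 215 and 194, above all 4 fibroblast- or tenocyte-like values of 58.4, 71.4, 91.7 and 29.2. Of the 10 fibrillar genes that could be tested, all 10 passed the test upward in fibroblast- or tenocyte-like against quiescent-like cells.

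In this contrast 23 of the 37 members tested were higher and 5 lower, where 23.1% of all 14065 genes tested were called higher and 18.9% lower. The median log2 fold change was 2.23 over the members tested and -0.01 over all genes. The largest increases were Col11a1 at 10.24 ± 0.29 (SE; edgeR adjusted p = 2.89e-23), Col8a2 at 8.64 ± 0.50, Col14a1 at 6.74 ± 0.24 and Col23a1 at 6.51 ± 0.48. Col8a2, a chain of the short-chain type VIII network, rested on 89 UMIs against 3 in quiescent-like cells, a ratio of 508 with a counting interval of 168 to 2510. Col8a2 and Col23a1, scarce in the other classes, could pass the filter on low counts through fibroblast- or tenocyte-like cells alone. Their increases were thus in part given by the filter. Col4a3, another of the called members, rested on 5 UMIs in 1 library against 1 UMI, and its log2 change of 5.59 ± 1.32 became -1.57 without miR-501KO replicate 1. Called lower were Col19a1 at -4.40 ± 0.74, with 1 UMI against 386, Col6a6 at -3.38 ± 0.36, Col17a1 at -3.01 ± 0.67, Col26a1 at -2.19 ± 0.26 and Col4a2 at -0.57 ± 0.20 (adjusted p = 0.0231). With only these 2 classes in the fit, 31 members were tested, 20 of them higher and 6 lower. All 106 fibroblast- or tenocyte-like cells formed 1 class in which the sum of the 19 fibroblast and tenocyte markers was 5632 to 10519 CPM. That sum was 532 to 622 in quiescent-like, 296 to 345 in activated-like, 247 to 260 in cycling-like cells and 232 to 273 in the committed-like class.

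In the myogenic classes the fibrillar genes fell with commitment. Quiescent-like cells had Col1a1 at 638, 735, 677 and 588 CPM, activated-like cells at 1022, 1106, 1321 and 1039, and committed-like cells at 78.7, 71.4, 75.5 and 72.0. The 3 ranges did not overlap. Col1a2 ran from 1506, 1715, 1542 and 1423 in quiescent-like to 1973, 2146, 2307 and 1949 in activated-like and 423, 389, 398 and 398 in committed-like cells. Col3a1 went the other way at the first step, from 984, 1334, 1156 and 1240 in quiescent-like to 787, 918, 975 and 799 in activated-like cells, before falling to 145, 156, 130 and 155 in committed-like cells. All activated-like values of Col3a1 were below the lowest quiescent-like one. The change from quiescent- to activated-like cells was 0.75 ± 0.19 for Col1a1 (log2, SE; edgeR adjusted p = 0.00171), 0.43 ± 0.14 for Col1a2 (adjusted p = 0.0177) and -0.45 ± 0.18 for Col3a1 (adjusted p = 0.0433). From quiescent- to committed-like cells it was -2.96 ± 0.20, -1.76 ± 0.15 and -2.81 ± 0.19 in the same order of genes. Col5a1, with 213, 257, 244 and 216 in quiescent-like cells and 37.8, 35.8, 32.9 and 36.2 in committed-like cells, fell in the same way.

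**Figure D2:**
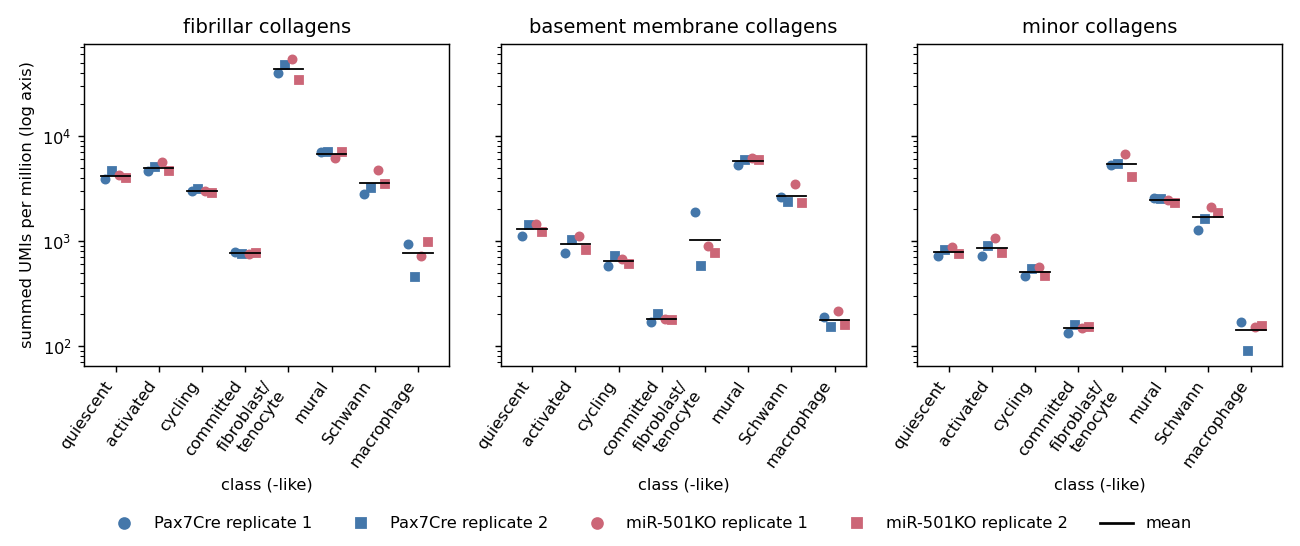
Summed levels of fibrillar, basement membrane and minor collagens (3 panels) in the 8 named cell types, in CPM on a log axis; each point is 1 library and the line their mean. Fibrillar collagens peak in fibroblast- or tenocyte-like cells at a mean of 43866 and basement membrane collagens in mural-like cells at a mean of 5821. Committed-like cells, with a fibrillar mean of 764, are plotted beside macrophage-like cells at 767, a value that was 352 with the highest Scrublet scores removed.

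Basement membrane collagens were led by mural-like cells, the pericytes and smooth muscle cells that wrap vessels. Col4a1 (ENSMUSG00000031502) and Col4a2 (ENSMUSG00000031503), which encode the chains of the type IV collagen found in nearly all basement membranes, are read from the same short stretch of DNA in opposite directions. In RefSeq their annotated transcripts start head to head and share 22 bases, chr8:11312805-11312826 of GRCm38.p6, shown here on the plus strand since the 2 genes moved together in each cell type.
Col4a1 and Col4a2 shared start: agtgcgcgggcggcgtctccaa
Col4a1 stood at 2850, 3039, 3313 and 3292 CPM in mural-like cells and Col4a2 at 1308, 1636, 1585 and 1530. In Schwann-like cells, which build a basement membrane around nerve fibers, Col4a1 stood at 826, 760, 1032 and 843 and Col4a2 at 546, 561, 686 and 490. Quiescent-like cells came next with 571, 734, 762 and 614 for Col4a1 and 312, 419, 423 and 331 for Col4a2. The ranges of the Schwann- and quiescent-like cells overlapped slightly for Col4a1 and did not overlap for Col4a2. The log2 difference of mural- from quiescent-like cells was 2.18 ± 0.25 for Col4a1 (SE; edgeR adjusted p = 7.1e-09) and 1.99 ± 0.19 for Col4a2 (adjusted p = 1.18e-10).

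Both genes were lower in the later myogenic classes. Col4a1 stood at 234, 332, 344 and 231 CPM in activated-like, 186, 267, 250 and 213 in cycling-like cells, and it fell to 38.1, 40.3, 31.2 and 33.5 in the committed-like class. The activated- and cycling-like ranges overlapped, and both lay below the quiescent- and above the committed-like range. Committed-like levels of Col4a1 were within the macrophage-like range of 60.3, 31.2, 87.9 and 35.8. The log2 change from quiescent-like cells was -1.25 ± 0.25 in activated-like (SE; edgeR adjusted p = 0.000125) and -4.03 ± 0.28 in committed-like cells (adjusted p = 3.07e-14) for Col4a1, and -1.01 ± 0.19 and -4.05 ± 0.22 for Col4a2. In fibroblast- or tenocyte-like cells Col4a1 varied widely, at 930, 208, 433 and 265.

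Col15a1 (ENSMUSG00000028339), a collagen that lies at the outer face of basement membranes, had the largest change of any member tested between quiescent- and activated-like cells. It stood at 77.1, 94.9, 64.5 and 115 CPM in quiescent-like cells and at 3.13, 1.91, 4.36 and 3.22 in activated-like cells, with no overlap. Cycling-like cells had 10.4, 23.6, 13.5 and 21.0 and committed-like cells 2.65, 2.56, 1.21 and 2.17. The log2 change from quiescent- to activated-like cells was -4.80 ± 0.38 (SE; edgeR adjusted p = 6.11e-12). Mural-like cells had most Col15a1, at 439, 468, 493 and 538, and Schwann-like cells had 122, 45.5, 191 and 94.2. In fibroblast- or tenocyte-like cells Pax7Cre replicate 1 stood apart at 299, where the others had 37.8, 64.6 and 79.9. That library also had the highest Col4a1 of this cell type, and the part of mural or endothelial RNA in it was not tested. When each cell was thinned to 5000 UMIs, Col15a1 was seen in 76.1% of mural-like and 23.8% of quiescent-like cells (38.8% before thinning). It was seen in 1.43% of activated-like and 1.67% of macrophage-like cells, so the activated-like share was no higher than the macrophage-like one.

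Col18a1 (ENSMUSG00000001435), whose C-terminal fragment is endostatin, had the opposite course among MPs. It rose from 153, 171, 179 and 135 CPM in quiescent-like to 371, 457, 536 and 417 in activated-like cells, with no overlap, and stood at 251, 258, 258 and 234 in cycling-like cells. The log2 change from quiescent-like cells was 1.47 ± 0.16 (SE; edgeR adjusted p = 1.17e-08) in activated-like and 0.73 ± 0.16 in cycling-like cells. In committed-like cells it stood at 101, 128, 117 and 116, a log2 difference of -0.27 ± 0.16 from quiescent-like cells (adjusted p = 0.142) that did not pass the test. Every committed-like library was above the macrophage-like values of 88.7, 88.9, 54.7 and 98.0. Schwann-like cells had most Col18a1, at 1103, 974, 1537 and 841, ahead of mural-like cells at 719, 702, 723 and 515.

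The remaining type IV genes were scarce. Col4a4 was found in Schwann-like cells at 38.8, 32.0, 19.5 and 31.7 CPM (90 UMIs) and in mural-like cells at 18.7, 15.7, 21.7 and 21.7 (128 UMIs), and these ranges overlapped. No Col4a4 UMI was counted in macrophage-like cells. Col4a5 was low throughout, with 11.0, 10.6, 10.8 and 8.69 in quiescent-like cells and 7.96, 16.8, 28.4 and 11.2 in fibroblast- or tenocyte-like cells, and only 2 UMIs of it were counted in Schwann-like cells. Col4a3 reached a mean of 9.40 in mural-like cells, and Col4a6 had 120 UMIs in all kept cells.

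Against quiescent-like cells, mural-like cells had 19 of 37 members higher and 8 lower, where 31.6% of all genes were called higher and 23.1% lower. By group, 6 of 7 basement membrane genes tested were higher, 5 of 10 fibrillar genes and 8 of 20 minor genes. The largest increases were Col4a3 at 8.11 ± 0.68 on the log2 scale (SE; 62 against 1 UMIs, a ratio of 521 with a counting interval of 90.2 to 20914), Col4a4 at 4.65 ± 0.33, Col6a3 at 4.43 ± 0.16, Col11a1 at 3.30 ± 0.72 and Col23a1 at 3.24 ± 0.69. Col4a3, at a mean of at most 1.61 CPM in any other named class, could pass the filter on low counts through mural-like cells alone. Its increase was thus in part given by the filter. Largest in the other direction were Col6a6 at -4.88 ± 0.36, Col19a1 at -4.34 ± 0.56, Col17a1 at -4.02 ± 0.60, Col26a1 at -3.65 ± 0.26 and Col13a1 at -1.60 ± 0.60. The last of these, with an adjusted p of 0.0245 by edgeR, was no longer called without Pax7Cre replicate 1 or without miR-501KO replicate 1. With only mural-like and quiescent-like cells in the fit, 27 members were tested, 17 of them higher and 9 lower. The sum of 9 endothelial markers was 262 to 296 CPM in mural-like cells, and its part in their basement membrane collagens was not tested.

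Type VI collagen, whose beaded filaments anchor basement membranes to the surrounding matrix, had all 3 of its main genes highest in fibroblast- or tenocyte-like cells. Col6a1 stood there at 1342, 1120, 1570 and 1127 CPM, Col6a2 at 958, 895, 1205 and 769 and Col6a3 at 1263, 1397, 1605 and 981. Mural-like cells were second with 712, 697, 637 and 631 for Col6a1 and 1054, 1148, 1087 and 949 for Col6a3, and for Col6a3 the 2 cell types overlapped. In quiescent-like cells Col6a3 lagged behind its partners, at 48.4, 49.7, 49.2 and 42.5, where Col6a1 had 256, 287, 332 and 274. Col6a3 was higher in activated-like cells at 130, 152, 222 and 144, a log2 change of 1.74 ± 0.15 (SE; edgeR adjusted p = 3.7e-11).

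Col6a6 (ENSMUSG00000043719), a long chain that can take the place of the Col6a3 chain, was 1 of the 2 described genes that were highest in quiescent-like cells. It stood there at 37.3, 51.7, 45.7 and 42.1 CPM, and at 6.72, 8.29, 4.95 and 6.31 in activated-like and 5.56, 9.37, 7.45 and 6.62 in cycling-like cells. The quiescent-like range lay above every other library of any class. Its log2 change from quiescent-like cells was -2.74 ± 0.13 in activated-like (SE; edgeR adjusted p = 4.99e-17), -2.55 ± 0.12 in cycling-like cells and -5.76 ± 0.20 in the committed-like class. Quiescent-like cells held 60.0% of all Col6a6 UMIs. At 5000 UMIs per cell it was seen in 17.2% of quiescent-like, 2.94% of activated-like and 0.959% of macrophage-like cells. Col6a5, the other long chain that was described, rested on 48 UMIs in fibroblast- or tenocyte-like cells, and its values of 1.33, 0, 56.8 and 2.58 came almost wholly from miR-501KO replicate 1.

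Among the FACIT collagens, Col12a1 and Col14a1, whose products sit on type I fibrils, were highest in fibroblast- or tenocyte-like cells at 511, 584, 833 and 434 and at 354, 601, 480 and 205 CPM. Both were higher in activated- than in quiescent-like cells. Col12a1 went from 33.6, 40.2, 40.9 and 36.4 to 81.1, 80.4, 111 and 92.1, a log2 change of 1.25 ± 0.15 (SE; edgeR adjusted p = 4.46e-08). Col14a1 went from 2.88, 4.19, 3.18 and 4.67 to 18.5, 21.5, 13.5 and 20.8, a log2 change of 2.30 ± 0.25 (adjusted p = 6.14e-09). For Col14a1 the activated-like share of cells at 5000 UMIs was 7.12%, against 5.61% in macrophage-like and 1.64% in quiescent-like cells. The activated-like share was thus close to the macrophage-like one, and the part of free RNA in it was not tested. Col16a1, another FACIT collagen, was shared between fibroblast- or tenocyte-like cells at 202, 252, 431 and 184 and Schwann-like cells at 225, 258, 206 and 234, and these ranges overlapped.

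A set of minor collagens was found almost only in Schwann-like cells. Col20a1 (ENSMUSG00000016356), a FACIT-related collagen, stood at 458, 693, 449 and 823 CPM there (1971 UMIs) and at a mean of at most 0.572 in any other named cell type. Col28a1 (ENSMUSG00000068794), a collagen known from the basement membranes around peripheral glia, stood at 33.7, 123, 138 and 110 (333 UMIs), with at most 10.5 in fibroblast- or tenocyte-like cells and at most 4 UMIs in each other class. Col9a3, a chain of the FACIT collagen type IX, stood at 88.1, 128, 102 and 112 (335 UMIs) and at a mean of at most 0.860 elsewhere. Schwann-like cells were 2.10% of the cells and held 90.4% ± 6.81 (SD, n = 4) of all Col20a1 UMIs, 82.3% of Col28a1 and 77.0% of Col9a3. Thinned to 5000 UMIs, 68.4% of Schwann-like cells had Col20a1, 21.3% Col28a1 and 35.6% Col9a3, while no macrophage-like cell had Col20a1. The 250 bases before the starts of the 2 genes with the largest difference from quiescent-like cells, Col28a1 and Col20a1, are printed (RefSeq, GRCm38.p6; Col20a1 chr2:180986285-180986534, plus strand; Col28a1 chr6:8192618-8192867, minus strand), with the ACAAAG or CTTTGT motif in capitals.
Col20a1: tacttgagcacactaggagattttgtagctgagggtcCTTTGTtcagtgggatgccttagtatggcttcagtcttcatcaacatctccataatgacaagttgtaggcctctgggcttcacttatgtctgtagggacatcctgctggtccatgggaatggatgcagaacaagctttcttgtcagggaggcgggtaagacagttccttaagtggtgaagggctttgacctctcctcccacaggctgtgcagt
Col28a1: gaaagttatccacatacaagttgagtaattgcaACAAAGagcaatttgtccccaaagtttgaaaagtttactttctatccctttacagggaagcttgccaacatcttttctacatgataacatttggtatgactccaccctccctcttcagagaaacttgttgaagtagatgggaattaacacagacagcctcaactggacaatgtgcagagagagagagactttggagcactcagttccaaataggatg
The motif, the core of the sites known for SOX family factors, lay 213 bases before the start of Col20a1, as CTTTGT, and 217 bases before that of Col28a1, as ACAAAG. Both are among the 4 members whose window holds these letters, as 16.5% of all windows do.

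Schwann-like against quiescent-like cells gave 13 of 37 members higher and 14 lower, where 26% of all genes were called higher and 21.2% lower. The largest increases were Col28a1 at 10.24 ± 0.49 on the log2 scale (SE; 333 against 3 UMIs, a ratio of 1994 with a counting interval of 677 to 9721), Col20a1 at 9.93 ± 0.16, Col9a3 at 8.83 ± 0.36, Col11a1 at 8.59 ± 0.32 and Col9a2 at 5.63 ± 0.70. Col28a1, Col20a1 and Col9a3, scarce in the other classes, could pass the filter on low counts through Schwann-like cells alone. Their increases there were thus in part given by the filter. With only these 2 classes in the fit, 31 members were tested, 13 of them higher and 15 lower. In the main fit Col27a1 was higher by 2.25 ± 0.12 (edgeR adjusted p = 1.1e-16). Col13a1 and Col25a1, both of which encode collagens that span the plasma membrane, had no UMI in Schwann-like cells, which makes them at least 5.42-fold and at least 2.88-fold lower there when 3 UMIs over all libraries are taken as the floor. Col6a6 at -5.34 ± 0.46, Col19a1 at -4.69 ± 0.71 and Col4a5 at -4.17 ± 0.72 were the other large decreases. Col19a1 is a FACIT collagen known from muscle, and its 2020 UMIs in all kept cells never came to 10 CPM in a class. The summed macrophage markers in Schwann-like cells were 207, 491, 105 and 1086, while they were at most 132 in any library of the other named classes apart from macrophage-like cells, and their part in these differences was not tested.

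Of the other minor collagens, Col8a1, a short-chain network collagen, was highest in fibroblast- or tenocyte-like cells at 553, 401, 473 and 282 CPM and second in activated-like cells at 111, 189, 158 and 141, which overlapped the quiescent-like values of 120, 138, 130 and 116. Col8a2 was found in fibroblast- or tenocyte-like cells at 6.64, 35.7, 47.8 and 25.8 and at a mean of at most 0.289 elsewhere. Col23a1, which encodes a transmembrane collagen, stood at 26.5, 71.4, 22 and 12.0 in the same cells (85 UMIs). Col26a1, a small secreted collagen, was instead a gene of the myogenic cells. It stood at 67.3, 82.0, 77.9 and 71.5 in quiescent-like, 56.7, 69.1, 64.6 and 56.2 in activated-like and 38.1, 49.7, 43.0 and 47.6 in committed-like cells, against a mean of 6.07 in mural-like and 5.83 in Schwann-like cells. The quiescent- and activated-like ranges overlapped, and the committed-like range lay below both. At 5000 UMIs per cell, 22% of committed-like and 6.40% of macrophage-like cells had Col26a1.

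The other 15 members stayed under 10 CPM in every named class. Their highest mean level in any class ran from 0.215 to 9.40, and their UMIs in all kept cells from 13 for Col9a1, 18 for Col10a1 and 20 for Col2a1, which are collagens of cartilage, to 1195 for Col13a1 and 2020 for Col19a1. With the filter on low counts, 37 of the 44 members entered the tests between cell types. Col2a1, Col4a6, Col6a4, Col6a5, Col9a1, Col10a1 and Col22a1 did not.

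The make-up of collagen RNA differed between cell types. Fibrillar genes gave 87.2% ± 1.77 (SD, n = 4) of the collagen UMIs in fibroblast- or tenocyte-like cells, between 66.8% and 73.7% in the 4 myogenic classes, and 45.1% ± 2.48 in mural-like and 44.6% ± 2.07 in Schwann-like cells. Basement membrane genes gave 38.6% ± 2.52 in mural-like and 34.0% ± 3.97 in Schwann-like cells, 20.7% in quiescent-like and 13.6% in activated-like cells, and 2.13% ± 1.31 in fibroblast- or tenocyte-like cells. Minor genes gave most in Schwann-like cells, with 21.4%, and 10.7% to 16.3% elsewhere.

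**Figure D3:**
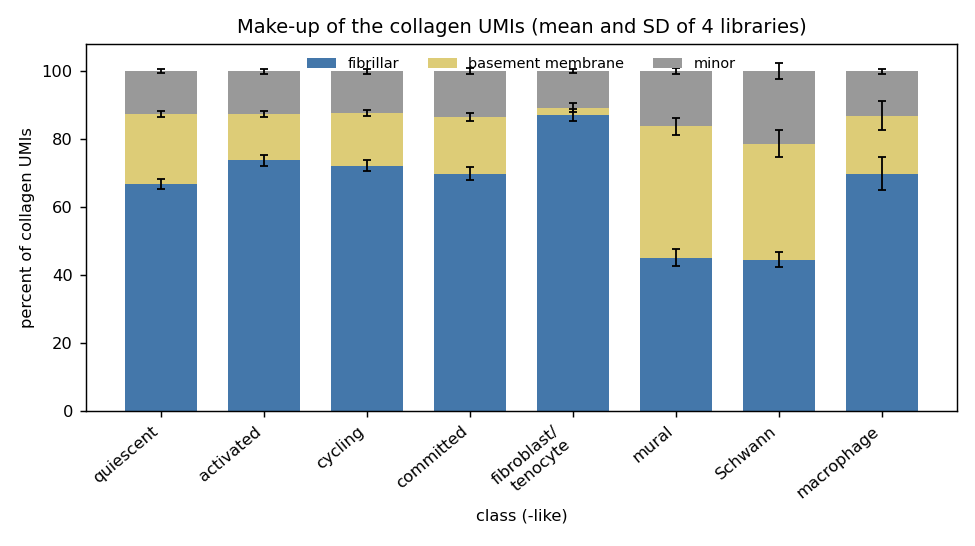
Stacked bars of the share of collagen UMIs from fibrillar, basement membrane and minor genes in each named cell type, in percent from 0 to 100, as the mean of the 4 libraries with SD bars. Fibrillar genes make up 87.2% in fibroblast- or tenocyte-like cells and under 50% in mural- and Schwann-like cells, where basement membrane genes reach 38.6% and 34.0%.

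Because myogenic cells were the bulk of the sort, they held most of the collagen molecules in spite of their lower levels. Of the fibrillar UMIs of a library, 29.8% were in activated-like, 26.8% in cycling-like and 18.5% in quiescent-like cells, while fibroblast- or tenocyte-like cells, 1.06% of the cells, held 10.9% ± 3.44 (SD, n = 4). Committed-like cells were 12.8% of the cells and held 3.20%. For basement membrane collagens the shares were 24.4% in cycling-like, 24.3% in quiescent-like and 23.5% in activated-like cells, and 11.7% ± 6.77 in mural-like cells, which were 2.38% of the cells. The mural-like share ran from 4.02% to 18.6% between libraries, whose mural-like cells numbered 118, 22, 90 and 40. Single genes departed from these shares. Fibroblast- or tenocyte-like cells held 67.0% of Col11a1 and 66.2% of Col8a2, Schwann-like cells held a further 25.5% of Col11a1, and mural-like cells held 24.1% of Col15a1. These shares are of the sorted cells, since the sort against Sca1 and CD31 removes many fibroblasts and endothelial cells, and they are not shares of the muscle.

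Steps between the myogenic classes were set side by side over the 37 members tested. In activated- against quiescent-like cells 10 were higher and 11 lower, where 19.7% of all genes were called higher and 19.3% lower. The median log2 change was -0.10 over the members and -0.01 over all genes. Among fibrillar genes Col1a1, Col1a2 and Col5a2 were higher and Col3a1 and Col27a1 lower, among basement membrane genes Col18a1 was higher and Col4a1, Col4a2 and Col15a1 lower, and of the minor genes 6 were higher and 6 lower. Largest upward, beside Col14a1, Col6a3 and Col18a1, were Col8a2 at 2.10 ± 0.74 (SE; 21 against 3 UMIs, a ratio of 5.0 with a counting interval of 1.49 to 26.2) and Col7a1, the anchoring fibril collagen, at 1.56 ± 0.35 (edgeR adjusted p = 0.000601). Largest downward, beside Col15a1 and Col6a6, were the transmembrane collagen genes Col17a1 at -2.25 ± 0.22 and Col13a1, a collagen of the neuromuscular junction, at -1.38 ± 0.29, and Col20a1 at -1.32 ± 0.49 (adjusted p = 0.0314). The calls of Col8a2 and Col20a1 rested on low levels and were lost under 4 and 7 of the other settings.

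Cycling-like against quiescent-like cells had 4 members higher and 19 lower, where 31.4% of all genes were called higher and 29.9% lower. The 4 were Col14a1 at 2.0 ± 0.25 on the log2 scale (SE; edgeR adjusted p = 2.49e-08), Col18a1 at 0.73 ± 0.16, Col6a3 at 0.62 ± 0.15 and Col12a1 at 0.60 ± 0.15, all of which were also higher in activated-like cells. The largest decreases were Col6a6, Col17a1 at -2.40 ± 0.22, Col15a1 at -2.30 ± 0.29, Col27a1 at -1.49 ± 0.10 and Col4a1 at -1.47 ± 0.25. The median change was -0.57 over the members and -0.02 over all genes.

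Committed-like against quiescent-like cells had 1 member higher and 20 lower, where 32.6% of all genes were called higher and 31.8% lower, with a median log2 change of -1.76 over the members and 0.00 over all genes. The lower members were 8 of 10 fibrillar genes, 3 of 7 basement membrane genes and 9 of 20 minor genes. The largest decreases were Col6a6, Col15a1 at -5.08 ± 0.43 (SE; edgeR adjusted p = 2.91e-12), Col4a2, Col4a1 and Col5a3 at -3.75 ± 0.18. Col26a1 fell least among the described genes that were called, by 0.56 on the log2 scale (SE 0.11). The 1 higher gene was Col7a1 at 0.98 ± 0.40 (adjusted p = 0.0325), which was higher in 3 of 4 libraries and was not called under 7 of the other settings.

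**Figure D4:**
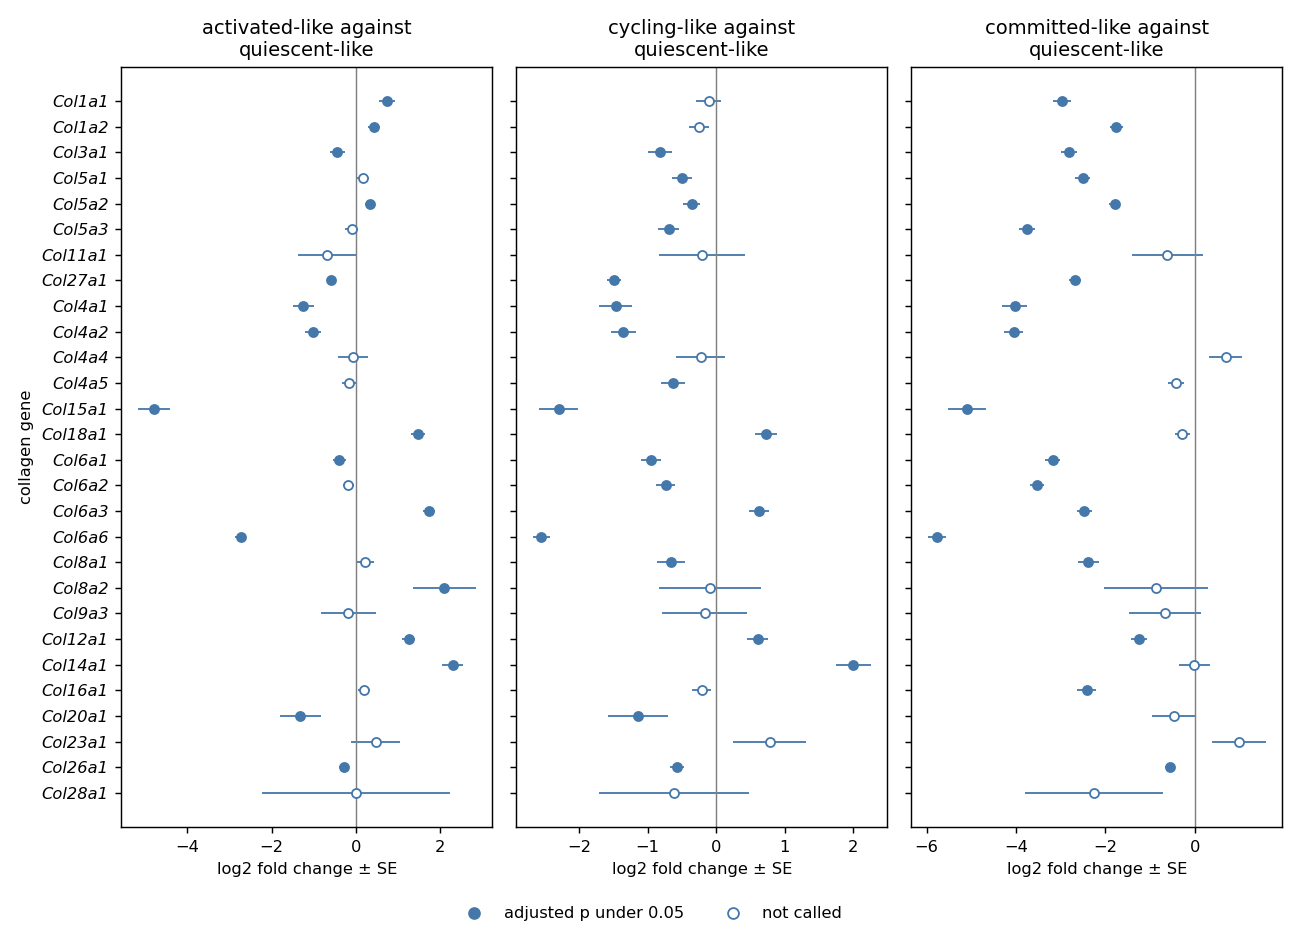
Log2 fold changes with SE of the described collagen genes in activated-, cycling- and committed-like against quiescent-like cells, 1 row per gene; filled points have an edgeR adjusted p under 0.05. Col14a1, Col6a3, Col18a1 and Col12a1 lie right of 0 in the activated- and cycling-like panels, Col15a1 and Col6a6 lie left of 0 in all 3, and Col1a1, Col3a1, Col4a1 and Col4a2 lie left of -2 in committed-like cells.

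The ratio of chains that assemble with each other also differed between cell types. There were 1.31 Col1a1 UMIs for each Col1a2 UMI in fibroblast- or tenocyte-like cells (range over libraries 1.13 to 1.53) and 1.13 in mural-like cells (1.05 to 1.20). In MPs the ratio was lower, at 0.426 in quiescent-like (0.413 to 0.439), 0.535 in activated-like (0.515 to 0.573) and 0.185 in committed-like cells (0.181 to 0.190). None of these ranges of the myogenic classes overlapped. The macrophage-like ratio of 0.420 (0.358 to 0.477) lay above that of committed-like cells, although both cell types had low levels of the genes. For type IV collagen the ratio of Col4a1 to Col4a2 moved little, from 1.52 in Schwann-like to 2.07 in mural-like cells. For type VI collagen the ratio of Col6a3 to Col6a1 ran from 0.113 in Schwann-like and 0.166 in quiescent-like (0.148 to 0.189) to 0.723 in activated-like (0.673 to 0.763) and 1.58 in mural-like cells (1.48 to 1.71). The ratio of Col3a1 to Col1a1 was 1.79 in quiescent-like (1.54 to 2.11), 0.777 in activated-like (0.738 to 0.830), 1.97 in committed-like and 0.630 in fibroblast- or tenocyte-like cells.

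**Figure D5:**
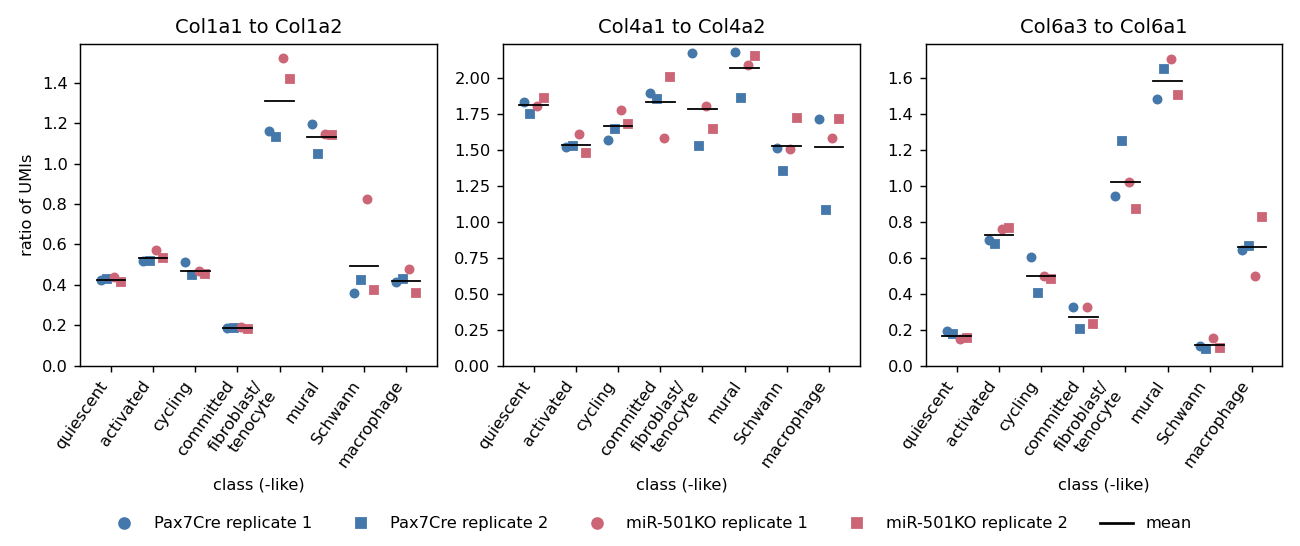
Ratios of UMIs between chains of type I (Col1a1 to Col1a2), type IV (Col4a1 to Col4a2) and type VI collagen (Col6a3 to Col6a1) in the named cell types; each point is 1 library and axes start at 0. The type I ratio is above 1 in fibroblast- or tenocyte-like and mural-like cells and lowest, at 0.185, in committed-like cells, while the type IV ratio stays between 1.52 and 2.07 on average.

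Within the committed-like class, cells with embryonic and perinatal myosin RNA had less collagen than cells marked by Myog. The cluster led by Myog (1060 cells) had fibrillar sums of 922, 896, 1021 and 915 CPM, and the cluster led by Myh3 and Myh8 (289 cells) had 389, 341, 342 and 345. Col1a2 went from 489, 467, 525 and 470 to 227, 166, 210 and 192, and Col18a1 from 123, 162, 162 and 144 to at most 49.1. None of these ranges overlapped, and in each library the myosin cluster was the lower one.

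Quiescent-like cells came in 3 clusters with different collagens. A cluster of 906 cells led by the interferon-response genes Iigp1, Gbp2 and Ifit1 had Col27a1 at 52.6, 48.0, 58.0 and 46.1 CPM, above the 14.6, 14.1, 25.3 and 20.1 of the cluster of 1271 cells led by Nppc and Edn3. Col8a1 was likewise at 161, 162, 151 and 163 in the first and 90.6, 120, 106 and 97.3 in the second. A small cluster of 82 cells with high Chrdl2 and Calcr, the latter a quiescence gene, could be read in 3 libraries, Pax7Cre replicate 2 and both miR-501KO ones. It had a median of 10080 UMIs per cell, and 52 of its 82 cells came from miR-501KO replicate 2. Type I collagen was low in this cluster, with Col1a1 at 152, 186 and 205 and Col1a2 at 253, 353 and 186. Its Col15a1 was high, at 215, 136 and 239, where the whole quiescent-like class had a mean of 87.9. Col3a1, at 1509, 1151 and 1359, was close to the levels of the whole class in the same libraries. Type IV collagen did not set the cluster apart either, with Col4a1 at 732, 786 and 831. In the cycling-like class the cluster led by the replication genes Mcm5 and E2f1 had the highest fibrillar sums, at 4424, 4320, 3650 and 4183, and the cluster led by the mitotic genes Cdc20 and Ccnb1 the lowest, at 2570, 2752, 2423 and 2282.

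Macrophage-like cells served as the reference for free RNA, although their levels fell when the highest Scrublet scores were removed. Of the 29 described genes, 22 in quiescent-like, 22 in activated-like, 20 in cycling-like, 22 in fibroblast- or tenocyte-like, 18 in mural-like and 20 in Schwann-like cells had their lowest library above the highest macrophage-like library. In committed-like cells these were 4, namely Col4a4, Col4a5, Col18a1 and Col26a1. The share of all genes that meets this rule was not counted, so these counts do not set collagens apart from other genes. Quiescent-like against macrophage-like cells had 26 of 37 members higher and 2 lower, where 25.8% of all genes were called higher and 34.9% lower. Activated-like cells had 23 higher and 1 lower (25.9% and 34.3% of all genes) and cycling-like cells 20 and 1 (33.6% and 31.7%). Among the larger increases were Col17a1 at 4.08 ± 0.59 (log2, SE), Col15a1 at 3.50 ± 0.58, Col6a6 at 3.25 ± 0.26 and Col4a1 at 3.25 ± 0.29 in quiescent-like cells. In activated-like cells Col1a1 was higher by 2.67 ± 0.21 (edgeR adjusted p = 4.32e-13), and Col25a1 had a larger increase. The members called lower were Col14a1 and Col11a2 in quiescent-like cells, and Col11a2 alone in activated- and in cycling-like cells. Col4a4, at 0 UMIs in macrophage-like cells, was at least 2.34-fold higher in quiescent-like cells by the floor of 3 UMIs over all libraries.

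Committed-like against macrophage-like cells had 6 members higher and 13 lower, where 31.4% of all genes were called higher and 35.5% lower. Higher were Col4a4 (at least 3.20-fold), Col25a1 at 2.64 ± 0.64 on the log2 scale (SE; edgeR adjusted p = 0.000551), Col19a1 at 2.32 ± 0.36, Col13a1 at 2.04 ± 0.69, Col4a5 at 2.03 ± 0.43 and Col26a1 at 1.63 ± 0.20. Largest downward were Col6a6 at -2.51 ± 0.51, Col11a2 at -2.28 ± 0.63, Col14a1 at -1.97 ± 0.45, Col6a3 at -1.77 ± 0.22 and Col5a3 at -1.26 ± 0.23. This split depended on how cells were taken, since it was 13 higher and 3 lower when the cells with the highest Scrublet scores were removed, and 10 and 9 when cells over 10% mitochondrial UMIs were removed. Col1a2 stood in neither list, with a difference of 0.12 ± 0.15 (adjusted p = 0.503). Cell by cell the picture for Col1a2 was another one, since at 5000 UMIs 65.4% of committed-like cells (62.8% to 69.5% between libraries) and 28.7% of macrophage-like cells (18.0% to 35.4%) had it. Col3a1 was seen in 43.5% and 25.2% of these cells and Col1a1 in 21.3% and 22.2%. Before thinning the Col1a1 shares were 53.6% and 43.9%, at median depths of 35771 and 18842 UMIs. For Col1a1 the thinned committed-like share was no higher than the macrophage-like one. How much of either was free RNA was not tested.

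The genes that fold, trim and cross-link collagen were counted in the same contrasts. Of 17 folding genes, which hydroxylate, glycosylate and chaperone the chains, 17 were higher in fibroblast- or tenocyte-like than in quiescent-like cells, where 23.1% of all genes were called higher. The largest changes were P4ha3, a prolyl hydroxylase subunit, at 8.98 ± 0.50 (log2, SE; edgeR adjusted p = 6.76e-16), Colgalt2 at 4.81 and P3h3 at 3.05. Of 10 propeptide and cross-linking genes tested 9 were higher there, led by the lysyl oxidases Loxl3 at 4.54 ± 0.15, Loxl2 at 4.52 ± 0.19 and Lox at 3.25 ± 0.13. In committed-like cells 12 folding genes were lower and 2 higher, Ppib at 0.85 and Plod2 at 0.75, and all 10 cross-linking genes were lower, led by Adamts3 at -3.17, Loxl2 at -2.93 and Adamts2 at -2.69, where 31.8% of all genes were called lower and 32.6% higher. Serpinh1, the collagen chaperone HSP47, had a mean of 919 CPM in quiescent-like, 1074 in activated-like, 293 in committed-like and 2264 in fibroblast- or tenocyte-like cells. In activated-like cells, where 19.7% of all genes were called higher and 19.3% lower, 9 folding genes were higher and 0 lower, and 5 cross-linking genes were higher, among them Pcolce2, an enhancer of procollagen trimming, at 2.41 and Lox at 1.30, and 1 was lower, Bmp1, a procollagen C-proteinase, at -0.30. The lists were counted, not tested as sets. Unlike the collagens, these genes and the basement membrane partners, receptors and enzymes below were not left out of the clustering. Lox was among the leading genes of the activated-like cluster and Mmp13 among those of the fibroblast- or tenocyte-like cluster. The classes may thus rest in part on such genes.

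Basement membrane partners, the laminins, nidogens, perlecan and agrin, moved with the type IV genes in some contrasts. Of 12 tested, 9 were lower and 1 higher in activated-like cells (19.3% and 19.7% of all genes), the lower ones led by the laminin chains Lama4 at -1.28, Lama2 at -1.08 and Lamc1 at -0.97 and the higher one being Lamb3 at 2.79. In committed-like cells 10 were lower, led by Lama4 at -4.25, Lamb1 at -2.68 and Lama2 at -2.31, and 1 was higher, Lamb3 at 1.59 (31.8% and 32.6% of all genes). In mural-like cells 5 were higher and 4 lower (31.6% and 23.1% of all genes), with Lama4 at 3.17, Nid1 at 3.01 and Lamb2 at 2.42 upward and Lama5 at -2.19 downward. Schwann-like cells had 6 higher and 4 lower (26% and 21.2% of all genes), with Lama4 at 3.54 and Agrn at 3.20 upward. Among collagen receptors and collagen-degrading enzymes, the integrin gene Itga1 was higher in mural-like cells by 5.21 and in Schwann-like cells by 5.37, and Itga2 in Schwann-like cells by 8.17. The collagenase gene Mmp13 was found at 12.0 to 784 CPM in fibroblast- or tenocyte-like cells and at 0 in quiescent-like, mural-like and Schwann-like cells. Macrophage-like cells held it too, since it was called lower in quiescent-, activated-, cycling- and committed-like cells than in them.

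No collagen passed the test between miR-501KO and Pax7Cre. With 2 libraries a side, edgeR called 0 of 41 members tested in all cells together, 0 of 26 in quiescent-like, 0 of 28 in activated-like, 0 of 31 in cycling-like, 0 of 25 in committed-like, 0 of 23 in fibroblast- or tenocyte-like, 0 of 20 in mural-like, 0 of 22 in Schwann-like and 0 of 18 in macrophage-like cells. DESeq2 called 0 in each as well. The share of all genes called was 0% in all cells, 0% in quiescent-like, 0.00779% in activated-like, 0% in cycling-like, 0% in committed-like, 0.0135% in fibroblast- or tenocyte-like, 0.0963% in mural-like, 0.0122% in Schwann-like and 0% in macrophage-like cells. Members at an unadjusted p under 0.05 by edgeR numbered 3 in all cells and 0, 1, 0, 3, 1, 1, 6 and 0 in the cell types in the same order. Of all genes, 2.80% were under that p in all cells. In the cell types these shares were 3.30%, 2.42%, 2.20%, 2.62%, 3.65%, 3.54%, 2.76% and 0.804% in the same order. The median SE of a member's log2 difference was 0.158 to 0.396, and with 2 libraries a side the absence of a call does not show that the genotypes were alike.

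The summed fibrillar level put the size of that spread in view. In quiescent-like cells the miR-501KO library was 388 CPM above the Pax7Cre library of the same run in run 1 and 672 below it in run 2, since the 4 sums were 3867, 4664, 4255 and 3993. Activated-like sums were 4593, 5069, 5704 and 4619 and fibroblast- or tenocyte-like sums 39399, 47583, 54626 and 33854, again with the miR-501KO library higher in run 1 and lower in run 2. The genotypes overlapped in each of these cell types.

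The Schwann-like class held the most members at an unadjusted p under 0.05 by edgeR, 6 of 22 tested. Col8a1 stood at 23.3 and 18.4 in the Pax7Cre and 156 and 33.5 CPM in the miR-501KO libraries, a log2 difference of 2.11 ± 0.66 (SE; edgeR adjusted p = 0.999). Col12a1 stood at 132 and 102 against 381 and 150, a difference of 1.13 ± 0.38 (adjusted p = 0.999), and Col1a1 at 313 and 416 against 1016 and 411, a difference of 0.90 ± 0.35 (adjusted p = 0.999). The genotypes did not overlap for Col8a1 and Col12a1 and did for Col1a1, and in each case miR-501KO replicate 1 was far above the rest. With the run number as a block, Col8a1 at 1.76 ± 0.34 (edgeR adjusted p = 0.000257) and Col12a1 at 0.97 ± 0.24 (adjusted p = 0.0228) were called, which were the only members called under the block in any cell type. Schwann-like cells numbered 23, 58, 39 and 75, and the fibroblast and tenocyte marker sum in them was 388, 403, 299 and 457 CPM. The part of fibroblast or tenocyte RNA in the differences of Col8a1, Col12a1 and Col1a1 was not tested. In committed-like cells Col25a1, a transmembrane collagen needed for motor innervation of muscle, stood at 2.26 and 1.60 against 5.16 and 4.99, a difference of 1.32 ± 0.29 (SE) that did not pass the adjustment.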

How the data were processed

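The deposited files held raw UMI counts per gene and cell barcode for 4 libraries, which the authors made from droplet reads by alignment and counting with Cell Ranger. The labels name v3.1 chemistry and the file headers name Cell Ranger 6.0.2, while the study's methods name other versions of both, and the submitters' processing notes list the build GRCm39. No values were normalized by the authors. The collagen members, the gene and marker lists and the rules for naming genes were chosen with earlier results of these data known.

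The limits of the study, 5000 UMIs and 1000 genes per barcode, were applied, which left 10450 of 16519 barcodes, more than the study counts after its own exclusions. Cells were scaled to 10000 counts and clustered in scanpy 1.11.5 on 2000 variable genes without the collagens (30 principal components, 15 neighbours, Leiden resolution 0.5). A cluster was named where at least 3 markers of a list were raised 1.5-fold, and clusters under 20 cells or with over 90% of cells from 1 library were left out. Scrublet marked 19 cells (0.182%), too few to count as a working doublet call, so none were removed and an alternative removed the highest scores.

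UMI counts were summed per library and cell type (at least 10 cells) and tested with edgeR 4.0.16 (quasi-likelihood, filterByExpr, TMM, R 4.3.3), adjusted by Benjamini-Hochberg over all genes tested and called under 0.05. Cell types were compared in 1 fit with library as a term, and genotypes in each cell type without one, since the study's methods give no test for these libraries. Classes and collagen values came from the same cells. In the genotype tests p-values measure the spread between pools of mice. In the tests between cell types they measure the spread that remains after the library term, taken over all named classes. Members reaching a mean of 10 CPM in a named class were described with every library; up to 5 called members per direction were named in each contrast, and up to 3 pathway genes per list. Shares of cells with a UMI were taken after thinning to 5000 UMIs. Intervals are 95% exact counting intervals and cover counting error only, as does the floor of 3 UMIs. Total depth was 73665012 to 117527749 UMIs per library, and 22 symbols named more than 1 gene. The steps were tested on simulated data. Of genes changed 2-fold between genotypes, the tests recovered from 1% in fibroblast- or tenocyte-like cells to 80.5% in cycling-like cells. Recovery was 5.5% in macrophage-like and 15% in Schwann-like cells. False calls ran from 0% of calls in fibroblast- or tenocyte-like cells to 21.4% in macrophage-like cells, and were 19.6% in all cells. Small genotype differences in the small classes could thus be missed.

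Replicate numbers are run numbers by the labels. The difference between runs correlated between the genotypes at 0.0187 in all cells and between -0.29 and 0.080 in the cell types, and the libraries of a group differed beyond counting noise (chi-square over its degrees of freedom 2.74 to 66.4). Alternatives were DESeq2 1.42.0, RLE size factors, no filter, 2000 UMIs, at most 10% mitochondrial UMIs, exclusion of the top 5% of Scrublet scores, Leiden 0.3 and 1.0, collagens kept in clustering, single-library clusters kept, library left out, only the 2 classes in the fit, the replicate block and each library left out. Promoters came from a RefSeq table of GRCm38.p6, another build than that of the files.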

Additional observations from a re-analysis of the deposited data

Results flagged for a closer look

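In 8 of 173 sets of 4 libraries, 1 library lay farther from the rest than Dixon's 95% critical value allows, which chance gives in about 1 set in 20. The cause was not tested for any of them.

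In Schwann-like cells, miR-501KO replicate 1 was the highest library for Col1a1 at 1016 CPM (others 313 to 416), for Col12a1 at 381 (others 102 to 150) and for Col8a1 at 156 (others 18.4 to 33.5). These 3 flags fell in the same 39 cells, whose fibroblast and tenocyte marker sum of 299 was the lowest of the 4 libraries. In fibroblast- or tenocyte-like cells, Pax7Cre replicate 1 (19 cells) had Col15a1 at 299 (others 37.8 to 79.9), and miR-501KO replicate 1 (18 cells) had Col6a5 at 56.8 (others 0 to 2.58). In mural-like cells the fibrillar sum of miR-501KO replicate 1 was low at 6116 (others 6975 to 7069), and Col18a1 of miR-501KO replicate 2 was low at 515 (others 702 to 723). In macrophage-like cells Col6a2 of Pax7Cre replicate 2 was low at 8.36 (others 22 to 23.6).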

How the results depend on the processing

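The counts of collagens called between cell types stayed within 1.5 times the main count in all 160 comparisons with an alternative, although the split of committed-like against macrophage-like cells moved from 6 higher and 13 lower to 13 and 3 with the highest Scrublet scores removed. The alternative that kept single-library clusters could change nothing, since those clusters had no name from their markers either. It is included in the counts of this section. Of the counts of collagens called between genotypes, 121 did not change and 11 rose. Leaving out 1 library gave 0 to 1 calls in quiescent-like, 0 to 2 in activated-like, 0 to 1 in committed-like, 0 to 2 in fibroblast- or tenocyte-like, 0 to 1 in Schwann-like and 0 to 1 in macrophage-like cells. Without the filter on low counts there were 3 calls in fibroblast- or tenocyte-like, 2 in Schwann-like and 1 in macrophage-like cells. The replicate block, which pairs libraries by run, gave 2 calls in Schwann-like cells and changed no other genotype count.

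Of the group levels under an alternative, 255 moved by less than the spread between libraries and 9 by more. The fibrillar collagens of cycling-like cells moved to 2809 CPM with 2000 UMIs as the minimum depth, 3158 at Leiden resolution 1.0 and 3139.8 with collagens kept in clustering. Fibrillar collagens of committed-like cells moved to 791 with 2000 UMIs and 716 with the highest Scrublet scores removed, and those of activated-like cells to 5822 at Leiden resolution 1.0. In macrophage-like cells removal of the highest Scrublet scores moved fibrillar collagens to 352, basement membrane collagens to 69.6 and minor collagens to 79.4. The cause was not tested.

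Of the values of named members, 1297 kept direction and call, 32 lost the call and 3 reversed. Col4a3 in fibroblast- or tenocyte-like against quiescent-like cells went to -1.57 without miR-501KO replicate 1 (-1.57 to 7.15 over the libraries left out) and to -1.32 with at most 10% mitochondrial UMIs. Col5a3 in committed-like against macrophage-like cells went to 0.22 with the highest Scrublet scores removed. The cause was not tested. Some calls rested on few molecules, such as Col8a2 on 3 UMIs and Col4a3 on 1 UMI in quiescent-like cells.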

Other observations

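The cells left without a name held collagens too. A cluster of 21 cells led by Cdh5 and Pecam1, with 9 of 9 endothelial markers raised, had 6912 CPM of basement membrane collagens when its libraries were pooled, 265 fibrillar and 156 minor ones. Its Col4a1 stood at 3784 and its Col15a1 at 899, with Col26a1 at 0. A cluster of 512 cells with a median of 7392 UMIs and 27.8% mitochondrial UMIs had fibrillar sums above those of every named class other than fibroblast- or tenocyte-like cells, at 8068, 8357, 8166 and 8645 in the 4 libraries, and Col18a1 at 697, 996, 540 and 1022.

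Of the clusters found mostly in 1 group, a cluster of 659 cells, all of miR-501KO replicate 1, had fibrillar, basement membrane and minor sums of 1762, 397 and 345, and another of 98 cells, 95 of them of that library, had a fibrillar sum of 1729. A cluster of 67 cells had 10 cells or more only in the miR-501KO libraries, at fibrillar sums of 4021 and 4162. Since these clusters each come from 1 library or 1 group, cell type and library cannot be told apart in them.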
